A study of Mus musculus with 64 samples.

Results

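The entry of T cells into the inflamed colon was followed at the protein level through 3 libraries of sorted immune cells, 1 each from weeks 1, 2 and 3 after T cell transfer. All barcodes of these 3 libraries were taken, with no choice by any measured value, and 46136 of their 46681 barcodes passed the filters on antibody counts. The whole set of 9 surface protein libraries, which also covers weeks 0 and 4 to 7 and a treated week 7, held 130442 cells after the same filters. The hosts were SCID mice given CD45RBhi T cells and no anti-IL-12p40 antibody, and each library came from the pooled colon tissue of 3 animals sorted as EpCAM- and CD45+. The genotype reads SCID on these 3 libraries and BALB/c SCID on RNA libraries of the same series. The labels used here give no age or sex of the mice and no strain for the T cell donors. All 3 groups share the transfer, and the labels set them apart by week. They do not say whether the pools were stained and sequenced together. Each week is 1 library, so time and library cannot be told apart. The comparisons are the steps from week 1 to week 2 and from week 2 to week 3. They ask which surface phenotypes came in with the T cells, and how the other cell classes moved relative to each other.

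SCID mice cannot rearrange their antigen receptor genes, so they have almost no T or B cells of their own but keep innate lymphoid cells and all myeloid cells. Transferred CD45RBhi CD4 T cells, which are mostly naive, expand in such hosts in response to gut antigens and drive a colitis in which monocytes and neutrophils enter the tissue. CD3 is the signalling part of the T cell receptor complex, CD4 the coreceptor of helper T cells, and CD90.2 (Thy-1.2) a surface glycoprotein found on T cells and on the innate lymphoid lineage. CD127, a chain of the receptor for interleukin-7, supports resting and memory lymphocytes. KLRG1 is an inhibitory lectin-like receptor of late effector T cells and of group 2 innate lymphoid cells. CD103, the integrin alpha E chain, binds E-cadherin and marks intraepithelial T cells and intestinal dendritic cells. CD11b and CD11c are beta-2 integrin alpha chains, CD64 is the high-affinity Fc gamma receptor of macrophages, Ly-6C marks inflammatory monocytes and Ly-6G neutrophils.

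The week 1, 2 and 3 libraries kept 12604, 20977 and 12555 cells, with 576.5, 889 and 1403 antibody counts per cell at the median. Each week is 1 pool, so no test was made. Parentheses give 95% intervals (Clopper-Pearson, exact) that reflect the counting error alone, and not how pools of animals vary. The files give no cell number per tissue, so a change in a share or ratio cannot be told apart into gain of one class and loss of another. A step is said to rise or fall when the later value differed at least 1.5-fold from the earlier one and their intervals did not overlap. The week 2 library held 21229 barcodes although about 16000 cells were loaded, and doublets were not removed. Weeks 1 and 2 shared 66 barcodes, weeks 1 and 3 shared 47 and weeks 2 and 3 shared 82. Ly-6C gave 25.9%, 41.6% and 40.3% of all antibody counts at weeks 1, 2 and 3. A cell was positive for a protein above a threshold on the centred log ratio, the natural log of a count relative to that cell's mean over the panel. Positive and negative cells were not separable for CD127 and for Ly-6C, so shares that rest on them depend on where the threshold lies.

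CD3+CD4+ cells, the phenotype of helper T cells, rose at both steps. Their share of all cells was 4.77% (4.40 to 5.15) in the week 1 pool, 39.2% (38.5 to 39.9) at week 2 and 59.1% (58.3 to 60.0) at week 3. Week 1 had 0.107 CD3+CD4+ cells (0.0985 to 0.117) for each CD3- cell with CD11b, CD11c or CD64, the myeloid cells. Week 2 had 0.964 (0.935 to 0.994) and week 3 had 2.34 (2.24 to 2.44). The week 1 pool thus had 9.32 myeloid cells for each T cell, the week 2 pool nearly as many T cells as myeloid cells, and the week 3 pool more T cells. The ratio rose 8.98-fold in the first step and 2.43-fold in the second. Against the CD4- cells of the CD3-CD90.2+ class, the phenotype of innate lymphoid cells, the rise was larger: 0.124 T cells per such cell at week 1, 2.77 at week 2 and 7.54 at week 3, which is 22.4-fold and then 2.72-fold. Over 11 alternative ways of gating, filtering and scaling, the rise against myeloid cells ranged from 6.74-fold to 9.91-fold in the first step and from 1.95-fold to 4.58-fold in the second. Among the 6 steps between neighbouring weeks from week 1 to week 7, the first step was the largest for this ratio and the second ranked 4.

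**Figure D1:**
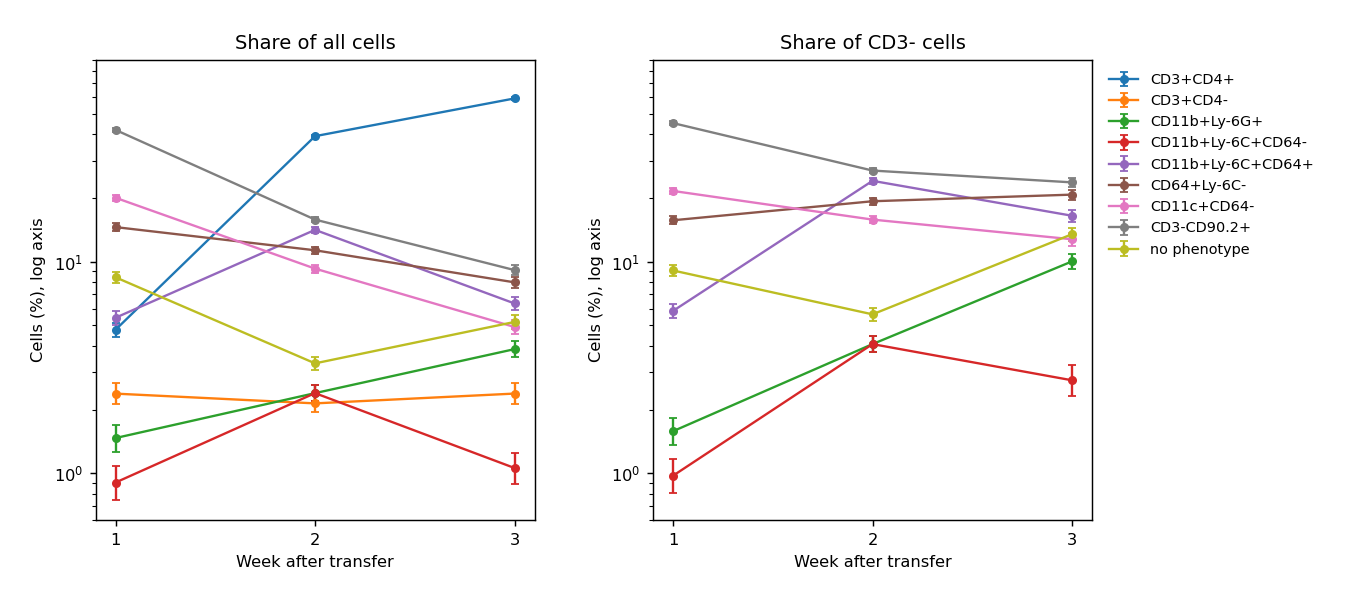
Share of each of 9 exclusive phenotypes among all cells (left) and of the 7 CD3- phenotypes among CD3- cells (right) at weeks 1, 2 and 3, in percent on a log axis. Points are single libraries and bars are exact 95% binomial intervals for counting error. CD3+CD4+ cells go from 4.77% to 59.1% of all cells, while among CD3- cells CD11b+Ly-6G+ cells climb at both steps and CD11b+Ly-6C+CD64+ cells are highest at week 2.

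Of the 9 phenotypes, 7 changed their share of all cells in the first step and 7 in the second (77.8% of phenotypes in both), so a change of share was the rule and says little of any single class. Of the 11 antibodies, 6 changed in the first step (54.5%) and 5 in the second (45.5%). CD3+ cells rose from 7.15% to 41.3% and then stood at 61.5%, and CD4+ cells rose from 13.4% to 46.4% and then stood at 63.3%. CD90.2+ cells hardly moved, at 63.9%, 68.3% and 67.1%, although their carriers were exchanged. Of the CD90.2+ cells, 7.39% were CD3+CD4+ at week 1, 57.1% at week 2 and 79.8% at week 3, while the CD3-CD90.2+ class gave 65.7%, 23.1% and 13.6%. KLRG1+ cells were likewise 32.8%, 27.2% and 26.7% of all cells at the 3 weeks. Of these, 1.31% were CD3+CD4+ at week 1, 43.8% at week 2 and 67.6% at week 3, while CD4- cells of the CD3-CD90.2+ class gave 66.5%, 28.7% and 17.4%. CD3- cells with CD11b, CD11c or CD64 gave another 25.1%, 17.2% and 5.20% of the CD90.2+ cells. CD3+CD4+ cells were thus a small part of the KLRG1+ and of the CD90.2+ cells at week 1 and the larger part of both at week 3.

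On the T cells themselves KLRG1 had the largest fold change of share in the first step among the 4 proteins that met the size rule. It was carried by 8.99% (6.82 to 11.6) of CD3+CD4+ cells at week 1, 54 of 601 cells, by 30.4% (29.4 to 31.4) at week 2 and by 30.6% (29.5 to 31.6) at week 3. The share rose 3.39-fold in the first step, from a level not above background as given next, and did not change by the size rule in the second, and at week 4 it was 10.7%. Over the 11 alternatives the first step ranged from 2.96-fold to 4.79-fold. The second step ranged from 0.880-fold to 1.56-fold, the highest when scaling each cell's counts to its library's median replaced centring. Background was read on cells that should lack KLRG1: it passed on 11.9%, 8.17% and 3.71% of CD11b+Ly-6G+ cells and on 17.7%, 7.45% and 2.49% of CD64+Ly-6C- cells at weeks 1, 2 and 3. The week 1 share on T cells therefore did not exceed the share on cells that should lack the protein, and the shares of weeks 2 and 3 did. CD3+CD4+ cells with at least 20 KLRG1 counts were 6.49% at week 1, 17.2% at week 2 and 27.5% at week 3, on cells with 1046, 1015 and 1411 counts in all at the median. By that raw cut-off, chosen after the data were seen, CD11b+Ly-6G+ cells gave 20.0%, 10.6% and 19.8%, with median totals of 2227, 1404 and 4575 counts.

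The KLRG1 share of the innate lymphoid phenotype did not follow that of the T cells. Among CD4- cells of the CD3-CD90.2+ class it was 56.6%, 55.3% and 59.2% at weeks 1, 2 and 3, and the ratio of KLRG1+ to KLRG1- cells, 1.24 at week 2 and 1.45 at week 3, changed in neither step. Its second step, 1.17-fold, passed the size rule under 2 of the 11 alternatives, at 1.85-fold with scaled counts and 1.67-fold with thresholds fitted in each library. KLRG1+ T cells stood at 1.53 for each KLRG1+ cell of the innate phenotype at week 2 and at 3.89 at week 3. Counted against all CD3- cells, KLRG1- T cells were 9.95-fold more frequent at week 2 than at week 1. KLRG1+ T cells went from 0.00461 to 0.203 per CD3- cell. The 54 cells of week 1 made up a share of T cells not above the background share, so no fold is read here. At the median KLRG1+ T cells had 42 KLRG1 counts at week 1, 22 at week 2 and 34 at week 3. From week 2 to week 3 the ratios grew 2.31-fold for KLRG1+ and 2.29-fold for KLRG1- T cells. T cells without KLRG1 and CD103 remained the most frequent subset, at 83.9%, 65.9% and 62.5% of CD3+CD4+ cells.

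**Figure D2:**
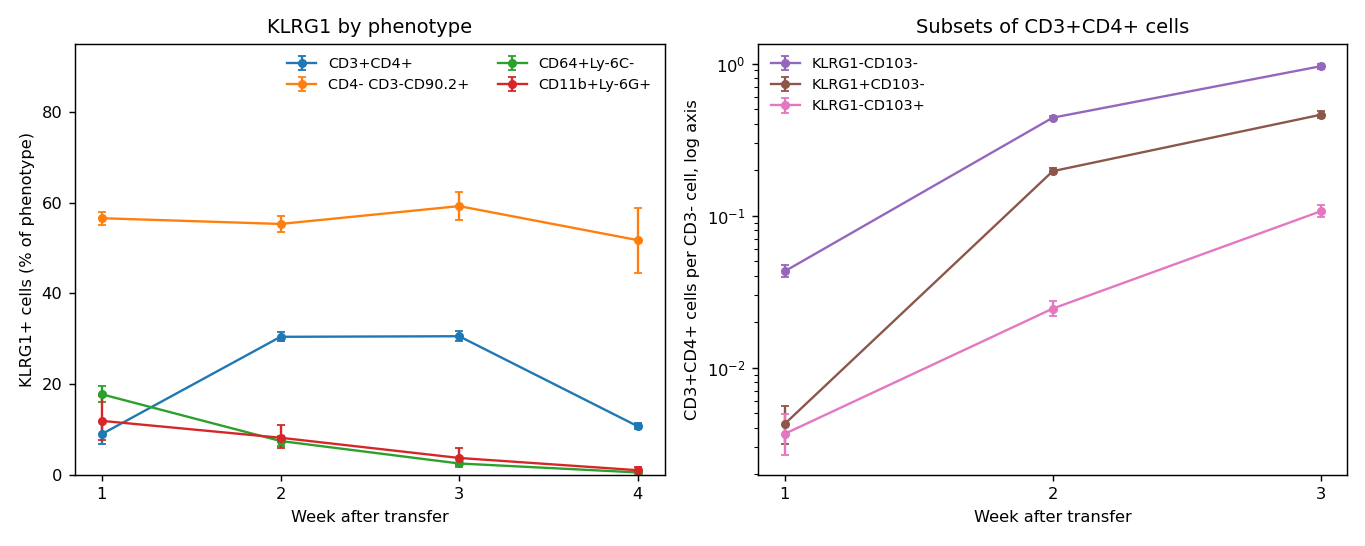
Left: KLRG1+ cells as a percent of 4 phenotypes at weeks 1 to 4. Right: subsets of CD3+CD4+ cells by KLRG1 and CD103, as cells per CD3- cell on a log axis at weeks 1 to 3. Points are single libraries with exact 95% intervals for counting error. KLRG1 on CD3+CD4+ cells is 8.99% at week 1 and 30.4% at week 2 while CD4- CD3-CD90.2+ cells stay between 55.3% and 59.2% at weeks 1 to 3. KLRG1-CD103- T cells are the most frequent subset at each week.

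KLRG1+ and KLRG1- T cells of the same library also differed in CD127 and CD103, a contrast chosen after the data were seen that does not set one library against another. Counts were centred per cell over 11 antibodies, so a high KLRG1 count by itself lowers the centred values of the other proteins. How much of the contrast comes from this was not tested. At week 1, CD127 was carried by 46.3% (32.6 to 60.4) of the 54 KLRG1+ and 47.0% (42.7 to 51.3) of the 547 KLRG1- T cells, which could not be told apart. At week 2 it was carried by 11.6% (10.4 to 12.9) of KLRG1+ and 31.9% (30.7 to 33.1) of KLRG1- T cells. At week 3 the shares were 17.8% (16.3 to 19.5) and 47.3% (45.9 to 48.7). CD127 was thus on fewer KLRG1+ than KLRG1- T cells at weeks 2 and 3, with median counts of 1 against 3 and of 8 against 12. Over the 11 alternatives the KLRG1+ over KLRG1- ratio of these shares was 0.258 to 0.563 at week 2 and 0.207 to 0.944 at week 3, nearest to 1 in both when counts were scaled to the library median. CD103 was carried by 3.64% of KLRG1+ and 5.26% of KLRG1- T cells at week 2, and by 1.90% (1.38 to 2.55) and 10.0% (9.20 to 10.9) at week 3. The KLRG1+ over KLRG1- ratio of CD103 was 0.691 at week 2 (0.545 to 0.920 over the alternatives) and 0.189 at week 3 (0.131 to 0.433).

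**Figure D3:**
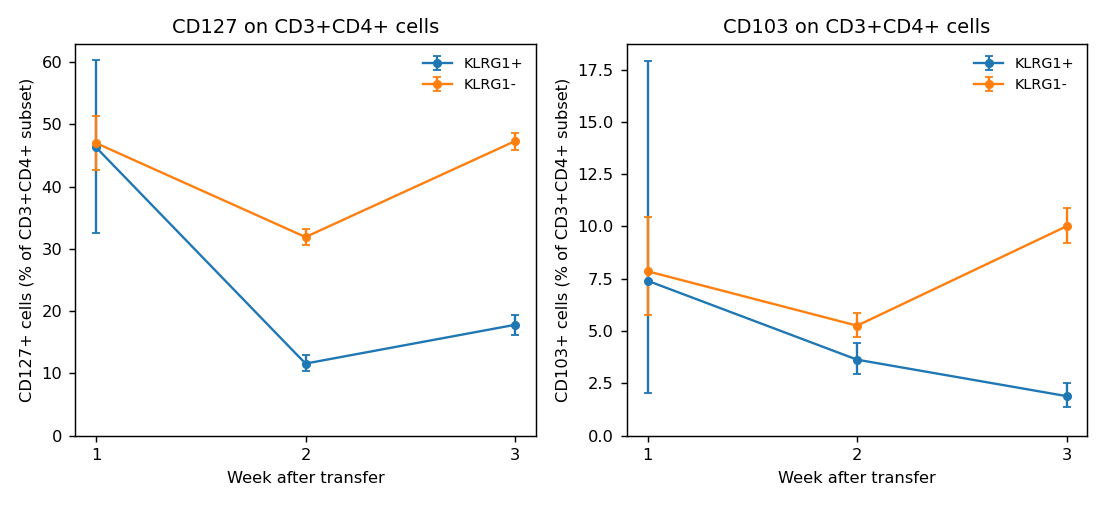
CD127+ (left) and CD103+ cells (right) as a percent of KLRG1+ and of KLRG1- CD3+CD4+ cells at weeks 1, 2 and 3, with exact 95% intervals for counting error. The subsets overlap at week 1, where 54 T cells carried KLRG1, and KLRG1+ cells lie below KLRG1- cells at weeks 2 and 3 for both proteins.

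Over all CD3+CD4+ cells, CD127 and CD103 were lowest at week 2. CD127 was carried by 46.9%, 25.7% and 38.3% at weeks 1, 2 and 3, a 1.82-fold fall and then a 1.49-fold difference that missed the size rule. CD103 was carried by 7.82% (5.80 to 10.3), 4.77% (4.32 to 5.25) and 7.53% (6.94 to 8.15), a 1.64-fold fall and a 1.58-fold rise. Neither course was firm: both first steps turned to a higher share at week 2 when thresholds were fitted in each library, at 1.29-fold for CD127 and 1.27-fold for CD103. The CD103 step was also upward, at 1.08-fold, once CD3+ cells carrying myeloid proteins were left out. Of the CD3+CD4+ cells, 19.1% at week 1, 17.1% at week 2 and 5.21% at week 3 also carried CD11b, CD11c, CD64 or Ly-6G. These cells had more antibody counts than the other T cells, 1771 against 950 at week 1, 1504 against 953 at week 2 and 2491 against 1379 at week 3, and the part of doublets in them was not tested.

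Of the 9 proteins outside the T cell gate, 4 changed their share of CD3+CD4+ cells in the first step (2 up, 2 down) and 5 in the second (1 up, 4 down). Across all phenotypes 55.2% of such within-class shares changed in the first step (31% up, 24.1% down) and 57.6% in the second (15.3% up, 42.4% down). With a 2-fold size rule 36.2% changed in the first step. Of the 32 within-class changes of the first step, 10 met the rule in the same direction under all 11 alternatives, and of the 34 of the second step 1 did. Those of the first step were KLRG1 on CD3+CD4+ cells, CD127 on CD3+CD4- cells, CD11c on CD11b+Ly-6C+CD64+ and CD64+Ly-6C- cells, CD4, CD90.2, KLRG1, CD103 and Ly-6C on CD11c+CD64- cells, and Ly-6C on CD3-CD90.2+ cells. That of the second step was CD90.2 on CD11b+Ly-6C+CD64+ cells. With scaled counts 9 changes of the second step turned round, and with thresholds fitted library by library 5 of the first and 4 of the second. On CD3+CD4+ cells the proteins that met the size rule, besides KLRG1, CD127 and CD103, included Ly-6C, at 2.16%, 5.34% and 0.525%. In the second step they also included CD11b (11.5% to 3.13%), CD11c (8.03% to 1.43%) and CD64 (5.19% to 1.45%). All of CD11b, CD11c, CD64 and Ly-6C were thus lower in the T cell gate at week 3 than at week 2. With scaled counts CD64 (7.33% to 10.2%) and Ly-6C (36.0% to 82.1%) were higher instead. Ly-6G was on 0.166%, 0.766% and 1.08% of CD3+CD4+ cells. CD90.2 was on 99.0%, 99.5% and 90.6%, and over the alternatives its week 3 share ranged from 87.0% to 95.2%.

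CD3 and CD4 define the gate, so its thresholds bound their levels from below. CD3+CD4+ cells had 47, 39 and 70 CD3 counts at the median at weeks 1, 2 and 3, and 176, 144 and 175 CD4 counts. Median CD90.2 counts were 653, 556 and 774, and median KLRG1 counts were 0, 1 and 6. On the centred log ratio, the first step raised KLRG1 by 0.44 and Ly-6C by 0.86 and lowered CD127 by 0.55 and CD103 by 0.51, all past the set size of 0.41. Thinned to 200 counts per cell, the KLRG1 difference was 0.04. In the second step the differences were -0.57 for CD4, -0.45 for CD90.2, 0.44 for CD127, 0.46 for CD103 and 1.02 for Ly-6G. The direction for CD4 and CD90.2 rested on the centring: with scaled counts they were 0.28 and 0.44 higher at week 3, as their median counts were, and with thinning -0.37 and -0.28, short of the set size. Relative to the cells of the same library that were negative for each antibody, the first step was 0.66 for KLRG1, 0.43 for Ly-6C, -0.18 for CD127 and 0.03 for CD103. On that reference the second step was -0.46 for CD4, -0.60 for CD3 and -0.31 for CD90.2, and 0.16 for Ly-6G, -0.01 for CD127 and 0.20 for CD103, so of the 5 second-step differences only that of CD4 stayed past the set size. Over 8 phenotypes and 11 antibodies, 36.4% of median levels passed the set size in the first step and 47.7% in the second.

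The CD3+CD4- phenotype has no marker of its own here, so its cells are not named as a type of T cell. The part of low-count barcodes and doublets in it was not tested. It met the size rule in neither step. Its share of all cells was 2.38%, 2.14% and 2.38%, on 300, 449 and 299 cells. These cells differed from week to week in what they carried: CD90.2 was on 49.7%, 83.5% and 40.8%, CD127 on 84.0%, 23.8% and 47.5%, and KLRG1 on 20.0%, 48.6% and 13.7%. CD11b was on 7.67%, 19.8% and 37.5% of them, CD64 on 5.00% and 15.4% at weeks 1 and 2, and Ly-6C on 3.33%, 25.2% and 19.1%. CD103 went from 13.0% to 5.57% in the first step, and Ly-6G from 1.78% to 12.0% in the second. Their median total was 186 counts at week 1, 783 at week 2 and 1975 at week 3, against 1046, 1015 and 1411 on CD3+CD4+ cells. The direction turned for CD90.2 in the first step with thinning (73.3% to 65.2%), and in the second for KLRG1 with scaled counts (41.0% to 49.7%) and for CD11b with thresholds moved by the negative cells (31.4% to 23.3%).

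The makeup of the CD3- cells shows what moved apart from dilution by T cells. Of the 7 CD3- phenotypes, 5 changed their share of CD3- cells in the first step (71.4%) and 2 in the second (28.6%). If the CD3- makeup of week 1 had been kept and only CD3+ cells added, CD64+Ly-6C- cells would have been 9.21% of all cells at week 2. They were 11.3%, so they were 1.23-fold above that value while their share of all cells was below the 14.6% of week 1. CD3-CD90.2+ cells would have been 26.5% and were 15.8%, and CD11c+CD64- cells would have been 12.7% and were 9.28%. CD11b+Ly-6C+CD64+ cells would have been 3.43% and were 14.1%, and CD11b+Ly-6G+ cells would have been 0.927% and were 2.39%. From week 2 to week 3 the same reckoning gave 1.57% for CD11b+Ly-6G+ cells, which were 3.86%, and 9.28% for CD11b+Ly-6C+CD64+ cells, which were 6.35%. Most CD3- classes thus changed in the first step, and in the second the neutrophil phenotype rose among CD3- cells, as did the cells in no phenotype (5.64% to 13.5%). Of the 10 antibodies other than CD3, 6 changed their share of CD3- cells in the first step (60%) and 2 in the second (20%). CD11b was on 29.3%, 56.6% and 53.1% of CD3- cells, CD64 on 22.3%, 45.4% and 41.5%, Ly-6C on 8.28%, 46.9% and 25.4%, and Ly-6G on 1.59%, 4.11% and 10.2%. CD127 fell from 65.8% to 30.8% in the first step and CD103 from 24.2% to 9.62%.

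Innate lymphoid cells fell against myeloid cells in the first step. CD4- cells of the CD3-CD90.2+ class stood at 0.869 (0.836 to 0.903) per CD3- myeloid cell at week 1, 0.348 (0.333 to 0.363) at week 2 and 0.310 (0.289 to 0.333) at week 3. That is a 2.50-fold fall, with a range of 2.34-fold to 2.56-fold over the alternatives, and then a 1.12-fold difference that missed the size rule. CD127 was on 94.1%, 79.4% and 85.1% of them and CD103 on 17.2%, 14.7% and 19.4%, and neither share met the size rule. Ly-6C passed on 0.740%, 40.7% and 2.13% of them, so Ly-6C calls were not limited to the monocyte phenotypes at week 2. How many passed depended on the setting: 1.58% at week 2 with thresholds fitted library by library, 11.5%, 78.6% and 49.2% at the 3 weeks with thinning, and 5.35%, 75.3% and 93.6% with scaled counts, where week 3 was the highest. The CD4+ cells of the same class, which could include T cells with little CD3, numbered 426, 353 and 162. At week 0, when the library held 1 CD3+CD4+ cell, the class already had 523 such CD4+ cells, and what they were was not tested. From week 1 on, the CD4+ cells of the class fell from 0.709 per CD3+CD4+ cell to 0.0429 and then to 0.0218. The CD3+CD4+ cells of this ratio numbered 601, 8223 and 7423, so their gain enters the fall. The 426, 353 and 162 cells stood among 11703, 12305 and 4833 CD3- cells, so the ratio is not read as a loss of the class. The first fall was 16.5-fold and 7.87-fold to 25.7-fold over the alternatives, and the second turned to a 1.70-fold rise when thresholds moved with each library's negative cells.

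**Figure D4:**
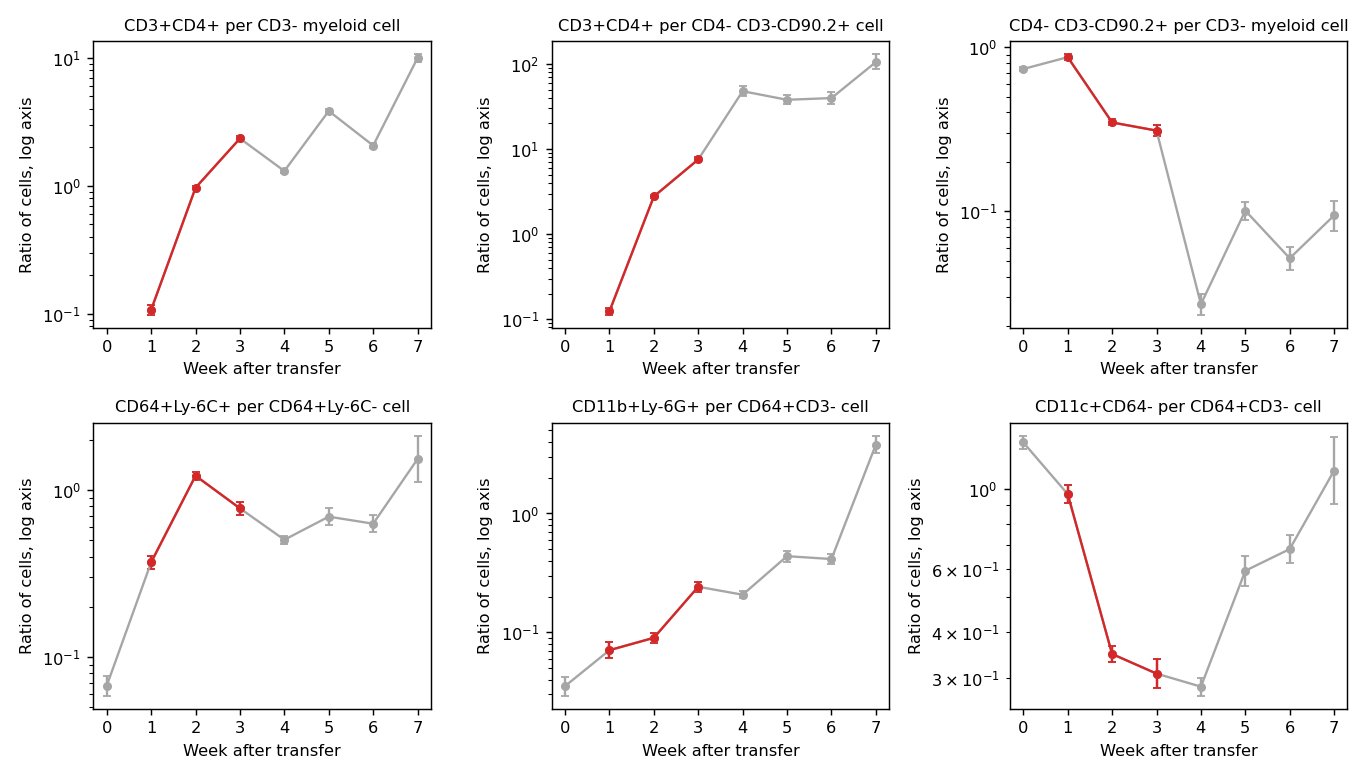
Ratios of cell classes at weeks 0 to 7 on log axes, 1 untreated library per week, with weeks 1, 2 and 3 in red and the other weeks in grey. Bars are exact 95% intervals for counting error, and week 0 is left out where the numerator had fewer than 10 cells. T cell ratios climb at both steps, CD4- CD3-CD90.2+ cells per myeloid cell and CD11c+CD64- cells per CD64+ cell drop at the first step, and CD11b+Ly-6G+ cells per CD64+ cell climb at the second.

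Monocytes gained on macrophages in the first step. Among CD64+CD3- cells there were 0.370 Ly-6C+ for each Ly-6C- cell at week 1, 1.22 at week 2 and 0.778 at week 3, on 2615, 5584 and 2006 cells. The ratio rose 3.30-fold and then fell 1.57-fold. The rise held over the alternatives, at 2.19-fold to 22.2-fold, and the Ly-6C calls on innate lymphoid cells moved with it, whose part in the rise was not tested. When the thresholds moved with each library's negative cells, the later fall shrank to 0.868-fold and missed the size rule, and with counts scaled to the library median it became a 3.44-fold rise. From week 1 to week 3 directly the ratio was 2.10-fold higher. Cells with CD11b and Ly-6C but without the macrophage receptor (CD11b+Ly-6C+CD64-) were 0.974%, 4.08% and 2.75% of CD3- cells. CD11b+Ly-6C+CD64+ cells were 5.85%, 24.1% and 16.5%. At week 2, 46.6% of the CD64- class carried CD90.2 and 18.3% CD4, so it is not read as monocytes alone. The size of the CD64- class depended on the setting, with 114 cells at week 1 and 502 at week 2. With thresholds moved by the negative cells it held 118 and 142, and with thresholds fitted library by library 71 and 140. With thinning it held 317 and 1331. CD11b+Ly-6C+CD64+ cells numbered 623 and 2340 with the moved thresholds.

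The CD64+Ly-6C- macrophage phenotype had more CD11c at weeks 2 and 3. CD11c was on 50.7% of these cells at week 1, 86.7% at week 2 and 81.9% at week 3, and over the alternatives the shares were 40.6% to 57.0%, 78.0% to 91.1% and 73.3% to 87.5%. Its median centred log ratio was 1.27 higher at week 2 than at week 1 and 1.31 higher relative to each library's CD11c- cells. Among all CD64+CD3- cells the ratio of CD11c+ to CD11c- cells was 0.720, 1.42 and 1.03, a 1.98-fold rise and a difference that missed the size rule. The lymphoid proteins CD90.2 and KLRG1 fell at both steps on these cells, CD90.2 from 44.4% to 20.5% and 8.37%, and KLRG1 as given above. With scaled counts the first falls missed the size rule, at 31.2% to 27.5% for CD90.2 and 20.2% to 19.5% for KLRG1, and the week 3 class had 40 cells, of which 30.0% carried CD90.2 and 12.5% KLRG1. With thresholds fitted library by library the first KLRG1 fall also missed the rule (11.8% to 8.19%), as did the second with thinning (8.22% to 6.09%). CD127 fell from 37.7% to 6.52%, but hardly differed with thresholds fitted library by library (17.9% to 17.0%). It then rose to 17.4%, a rise that turned to a fall, 17.3% to 10.6%, with thresholds moved by the negative cells. CD103 fell to 2.65% at week 2, a fall that missed the size rule under 3 alternatives. CD4, which some resident gut macrophages carry, was on 18.2%, 20.5% and 7.78% of CD64+Ly-6C- cells, a fall in the second step. With scaled counts it was on 15.0%, 17.2% and 20.0%, the last of 40 cells, and with thresholds moved by the negative cells the second step (15.9% to 12.4%) missed the size rule. Neutrophils lack CD4, and it passed on 8.65%, 9.96% and 12.4% of CD11b+Ly-6G+ cells.

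Neutrophils rose among CD3- cells at both steps (1.58%, 4.08% and 10.0%), and in the second step also against CD64+ cells and the monocyte phenotypes. There were 0.0707 CD11b+Ly-6G+ cells (0.0606 to 0.0821) per CD64+CD3- cell at week 1, 0.0899 (0.0819 to 0.0985) at week 2 and 0.242 (0.218 to 0.267) at week 3. The first step, 1.27-fold, missed the size rule. The second was a 2.69-fold rise, 2.21-fold to 3.17-fold over the alternatives. Per cell of the CD64+Ly-6C- phenotype they were 0.101 (0.0861 to 0.117), 0.211 (0.192 to 0.233) and 0.484 (0.433 to 0.539), a rise at both steps of 2.10-fold and 2.29-fold. CD11b+Ly-6G+ and CD64+CD3- cells overlap, since CD64 was on 48.6%, 40.8% and 39.8% of CD11b+Ly-6G+ cells. Per cell of the CD11b+Ly-6C+ phenotypes, which share no cell with them, neutrophils fell from 0.232 to 0.145 and then rose to 0.522, a 3.60-fold rise. The first of these steps missed the size rule under 2 alternatives, at 0.787 for thresholds fitted library by library and 0.902 for thresholds moved by the negative cells. Per CD3+CD4+ cell they fell from 0.308 (0.260 to 0.364) to 0.0610 (0.0557 to 0.0668) and then stood at 0.0653 (0.0595 to 0.0716), a 1.07-fold difference. On the neutrophils CD11c fell from 40.8% to 17.9% in the second step, CD90.2 was on 36.8%, 23.5% and 14.8%, CD103 fell from 11.4% to 1.39% in the first step, and Ly-6C was on 14.6% and 28.3% at weeks 1 and 2. CD11c did not fall with scaled counts (41.4% to 43.6%), and CD90.2 rose in the first step with scaled counts and in the second with thresholds fitted library by library, by less than the size rule. The first step of Ly-6C missed the size rule under 4 alternatives, at 11.4% to 12.7% with thresholds moved by the negative cells.

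Dendritic cells with CD103 fell against CD64+ cells in the first step. CD11c+CD64- cells stood at 0.967 (0.915 to 1.02) per CD64+CD3- cell at week 1, 0.348 (0.331 to 0.367) at week 2 and 0.308 (0.281 to 0.337) at week 3, a 2.77-fold fall and a 1.13-fold difference. Part of this class carried CD90.2: 32.4%, 59.6% and 33.2%. Those without CD90.2, a restriction added after the data were seen, numbered 1709, 786 and 412 and fell 4.64-fold per CD64+CD3- cell in the first step. Their CD103+CD11b- cells, the phenotype of cross-presenting dendritic cells, fell from 0.435 (0.405 to 0.466) to 0.0471 (0.0415 to 0.0533), which is 9.23-fold, and then rose 1.91-fold to 0.0897. With scaled counts that rise became a fall, at 0.523. Their CD103+CD11b+ cells, a type particular to the gut wall, went from 0.0761 to 0.0118 and 0.00947, with 19 cells at week 3. The CD103- cells fell 1.74-fold, from 0.143 to 0.0818, and missed the size rule when cells were thinned to 200 counts or under 200 counts were left out. Over the alternatives the first fall was 7.33-fold to 10.9-fold for CD103+CD11b- cells and 1.10-fold to 2.69-fold for CD103- cells.

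The CD64+CD3- cells of these ratios include Ly-6C+ cells, 706 of 2615 at week 1 and 3069 of 5584 at week 2, so their gain enters the falls. Per cell of the CD64+Ly-6C- macrophage phenotype, CD11c+CD64- cells went from 1.38 to 0.819 (0.771 to 0.870) and 0.615 (0.556 to 0.681). That first fall was 1.68-fold, missed the size rule with thinning and with lowered thresholds, and turned to a 1.47-fold rise with scaled counts. CD103+CD11b- cells without CD90.2 went from 0.619 (0.574 to 0.667) to 0.111 (0.0971 to 0.126), a 5.59-fold fall that ranged from 1.83-fold to 7.38-fold over the alternatives, and then to 0.179. CD103- cells stood at 0.203 (0.181 to 0.227), 0.192 (0.174 to 0.213) and 0.212 (0.182 to 0.246), which met the size rule in neither step. On this denominator the fall was thus in the CD103+CD11b- subset and was not seen in the CD103- subset, although CD103- cells rose 2.21-fold with scaled counts and 1.79-fold with thinning.

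**Figure D5:**
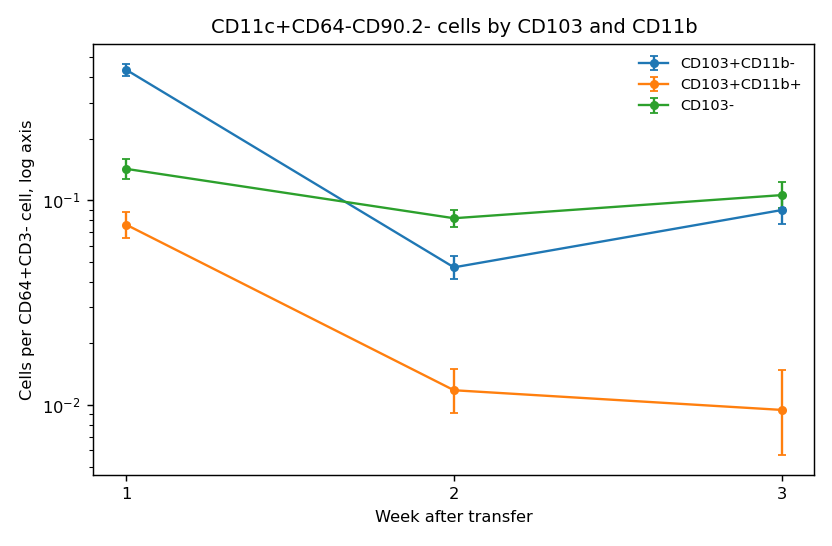
CD11c+CD64-CD90.2- cells split by CD103 and CD11b, as cells per CD64+CD3- cell on a log axis at weeks 1, 2 and 3, with exact 95% intervals for counting error. CD103+CD11b- cells are the most frequent subset at week 1 (0.435) and lie below CD103- cells at week 2 (0.0471 against 0.0818).

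CD103 was on 78.2% of CD11c+CD64-CD90.2- cells at week 1, 41.9% at week 2 and 48.3% at week 3, with median counts of 109, 5 and 28.5. In the whole CD11c+CD64- class CD103 was on 63.4%, 24.4% and 38.1%, and the median centred log ratio of CD103 dropped by 3.12 in the first step. CD11c itself dropped by 0.92 in that class. KLRG1, by contrast, was higher on the class at week 2 than before or after: it was on 12.8%, 28.0% and 12.5%. CD4 was on 6.33% and 15.7% at weeks 1 and 2, CD127 on 26.1% and 43.6% at weeks 2 and 3, and Ly-6C on 1.78%, 27.2% and 6.65%. In the second step KLRG1 (27.6% to 35.2%) and Ly-6C (77.8% to 93.1%) turned upward with scaled counts, as did CD90.2 (49.1% to 59.1%), and CD127 turned downward (37.3% to 33.5%) with thresholds moved by the negative cells.

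The monocyte phenotypes also differed from week to week in their surface proteins. CD11c was on 19.9% of CD11b+Ly-6C+CD64+ cells at week 1, 37.6% at week 2 and 16.9% at week 3, and on 21.9%, 37.3% and 12.8% of CD11b+Ly-6C+CD64- cells, so it rose and fell again in both. On the CD64- cells the rise met the size rule under only 5 of the 11 alternatives. It was 20.3% to 22.5% with thresholds moved by the negative cells, and turned to 26.8% and 21.4% with thresholds fitted library by library. CD90.2 was on 16.6%, 9.10% and 1.25% of the former and on 28.1%, 46.6% and 7.52% of the latter. The first fall of CD90.2 on the CD64+ cells turned to a rise, 1.28% to 4.76%, with scaled counts. CD127, not separable here and turned in direction at both steps by thresholds moved with the negative cells, was on 13.1%, 3.07% and 17.6% of CD11b+Ly-6C+CD64+ cells and on 29.8%, 11.6% and 27.1% of CD11b+Ly-6C+CD64- cells. CD4 was on 4.39% and 18.3% of CD11b+Ly-6C+CD64- cells at weeks 1 and 2, and on 4.48% and 0.502% of CD11b+Ly-6C+CD64+ cells at weeks 2 and 3. KLRG1 and CD103 fell on both phenotypes in the second step, but none of these falls met the size rule under all 11 alternatives. On CD11b+Ly-6C+CD64- cells KLRG1 went from 16.9% to 5.26%, and CD103 from 7.57% to 0 of 133 cells, which allows a share of up to 2.26%. On CD11b+Ly-6C+CD64+ cells KLRG1 went from 3.44% to 0 of 797 cells, which allows up to 0.376%, and CD103 from 1.48% to 0.125%.

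Set beside each other, the 10 ratios and shares fixed for this comparison changed in 9 cases in the first step (90%) and 6 in the second (60%). Over all 21 pairs of CD3- phenotypes, 81% of ratios changed in the first step and 57.1% in the second. From week 1 to week 7 the first step was the largest of the 6 steps between neighbouring weeks for T cells per other cell and for KLRG1 on T cells. For KLRG1 that step started from a share not above background. Week 0, with 1 CD3+CD4+ cell, was left out there. From week 0 on it was the largest of 7 steps for CD11c+CD64- cells and for CD103+CD11b- dendritic cells per CD64+CD3- cell. The same first step ranked 2 of 7 for CD64+Ly-6C+ per CD64+Ly-6C- cell and 5 of 7 for neutrophils per CD64+CD3- cell. For CD4- CD3-CD90.2+ cells per CD3- myeloid cell it ranked 3 of 7, below an 11.4-fold fall from week 3 to week 4. For neutrophils per CD64+CD3- cell the second step ranked 2 of 7.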

How the data were processed

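The 9 tables of antibody counts on sorted immune cells were read, and the other 55 of 64 samples were not used here. About 16000 cells were loaded per library, per the labels' protocols, and the design text states pools of 3 animals. The deposited values are whole-number antibody counts per barcode. Cell Ranger 6.0.2, Seurat 4.1.1 and the mouse build mm10 appear in the submitters' processing notes, which as read here leave the choice of barcodes unstated. Weeks 1, 2 and 3 held 12914066, 26704095 and 28723452 counts.

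Barcodes under 50 counts and the top 1% of each library were left out. Counts plus 1 were log transformed and centred per cell. Thresholds came from 2-component Gaussian mixtures, fitted once per antibody on 2000 cells of each library. Ashman's D, the separation of the components, was 1.56 for CD127 and 1.82 for Ly-6C. Each cell entered the first phenotype it met, in this order: CD3+CD4+, then CD3+CD4-, and among CD3- cells CD11b+Ly-6G+, CD11b+Ly-6C+ without or with CD64, CD64+Ly-6C-, CD11c+CD64-, CD90.2+ lacking all of CD11b, CD11c and CD64, then the rest. Phenotypes under 50 cells were not described within. Doublets were not called. All antibodies and phenotypes are named, and within-class values are named for CD3+CD4+ cells and where a step met the size rule. The members and lists were chosen with earlier results of these data known. Alternatives were another scaling, thinning to 200 counts, other thresholds and filters, and leaving out CD3+ cells with myeloid proteins. Thresholds moved with each library's negative cells, ratios with CD90.2- dendritic subsets, ratios per CD64+Ly-6C- cell, within-class shares under each alternative and KLRG1 contrasts were added after the data were seen. Cells simulated from the gated classes were passed back through the same gates, which cannot check the gates against known cell types. Mixtures were fitted with scikit-learn 1.9.0 and intervals computed with scipy 1.17.1, under Python 3.11.15. Tables were handled in pandas 2.3.3 on numpy 2.4.6, and matplotlib 3.10.9 drew the plots.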

Additional observations from a re-analysis of the deposited data

How the results depend on the processing

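For the 10 fixed ratios and shares in both steps, 220 alternative values were computed, of which 196 kept their side of the size rule, 12 lost it, 6 gained it and 6 reversed. Both steps of the T cell ratios, the second step of neutrophils and the first steps of dendritic cells, innate lymphoid cells, CD64+Ly-6C+ cells and KLRG1 kept their calls in all alternatives run. With counts scaled to the library median, the second step was 0.569 for CD11c+CD64- cells per CD64+CD3- cell, 3.44 for CD64+Ly-6C+ per Ly-6C- cells, 1.56 for KLRG1 and 2.98 for CD127 on T cells, and 0.457, 0.523 and 0.406 for all, CD103+CD11b- and CD103- dendritic cells without CD90.2. Per CD64+Ly-6C- cell, scaled counts gave 1.47 and 1.62 for CD11c+CD64- cells in the first and second steps and 2.21 for CD103- dendritic cells in the first, where thinning gave 1.79. The first step with scaled counts was 0.917 for CD103 and 0.902 for CD127 on T cells. With thresholds fitted in each library, CD103 on T cells gave 1.27 and 1.39 in the first and second steps, CD127 gave 1.29 in the first, the CD64+Ly-6C+ ratio 0.979 and CD4+ CD3-CD90.2+ cells per T cell 0.856 in the second. With thresholds moved by the negative cells, CD103 gave 1.14 and 1.10, CD127 0.895 in the first step, the CD64+Ly-6C+ ratio 0.868 and CD4+ CD3-CD90.2+ cells 1.70 in the second. The CD64+Ly-6C+ ratio in the second step was 0.715 with thresholds fitted on weeks 1 to 3 and 0.686 with no upper limit on counts. CD4+ CD3-CD90.2+ cells gave 0.677 with raised thresholds. CD103 on T cells gave 1.08 in the first step without CD3+ cells carrying myeloid proteins and 1.49 in the second with lowered thresholds. CD127 in the second step gave 1.58 with lowered thresholds, 1.78 thinned to 200 counts and 1.51 with a minimum of 200. The cause of these shifts was not tested.

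Of within-class shares, 32 changed 1.5-fold in the first step and 21 changed 2-fold. Of 88 median levels, 32 in the first step became 20 when thinned, and 42 in the second became 18 when thinned, 16 relative to negative cells and 72 with scaled counts. No paired analysis was possible because each week is 1 library, and no library could be left out of a step. Thinning to 200 counts left out 13.7% of cells at week 1, 3.80% at week 2 and 0.366% at week 3, so depth limits week 1 most.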
